A study of Homo sapiens with 18 samples.

Results

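The snoRNA host genes carry small nucleolar RNAs in their introns, and 10 noncoding hosts were listed by symbol: SNHG1, SNHG3, SNHG5, SNHG6, SNHG8, SNHG11, SNHG12, SNHG16, SNHG25 and GAS5. Of these, 9 had intervals in the deposited table, 22 intervals among 98665 and 9 gene IDs among 12755, and SNHG3 had no interval there. All 9 passed the filter of a mean of at least 10 units that left 10191 genes for testing. The data were newly made RNA of MDA-MB-453, an established luminal breast cancer cell line, in 18 libraries. They formed 6 groups of 3 libraries: nuclear, total and cytoplasmic RNA of cells given JQ1-VHL, and the same 3 RNA fractions of cells given DMSO. JQ1-VHL joins the BET bromodomain inhibitor JQ1 to a ligand of the VHL ubiquitin ligase, and the titles of these samples call it dBET. The drug or its solvent was present for 3 h, with 4-thiouridine at 0.1 mM added 60 min before harvest. After alkylation with iodoacetamide, a 4-thiouridine in RNA is read as C in place of T, so T-to-C reads report RNA made during the labelling. Nuclei and cytoplasm were split with 1 mg/ml digitonin, and libraries of polyadenylated RNA were read as 150 bp pairs.

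A snoRNA host is transcribed by RNA polymerase II, and its snoRNAs are trimmed out of the spliced introns, while the joined exons form a separate, polyadenylated RNA. Box C/D snoRNAs guide 2′-O-methylation and box H/ACA snoRNAs guide pseudouridylation, mostly of ribosomal RNA. The exon RNA of hosts such as GAS5 and SNHG1 has short reading frames and can be removed in the cytoplasm by nonsense-mediated decay, which depends on translation. Many hosts, GAS5 among them, begin with the terminal oligopyrimidine tract also found on ribosomal protein mRNAs. BET proteins bind acetylated histones and help RNA polymerase II to leave promoter-proximal pausing.

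RefSeq places 34 snoRNA and related small RNA genes within the 9 measured hosts, 26 of them box C/D and 7 box H/ACA by name. SNHG1 holds 8 SNORD genes and GAS5 holds 10 SNORD genes and SNORA103. SNHG5 holds SNORD50A and SNORD50B, which are often deleted in human cancers, SNHG6 holds SNORD87, SNHG16 holds SNORD1A, SNORD1B and SNORD1C, and SNHG25 holds SNORD104. In its longer GENCODE 29 span, SNHG25 also holds SNORA50C, a box H/ACA snoRNA by name. SNHG8 holds SNORA24 and SNHG11 holds SNORA60 and SNORA71E, so both are box H/ACA hosts, while SNHG12 holds 3 SNORA genes and SNORD99. For the 4 hosts whose values stood out most (SNHG5, SNHG16, SNHG25 and SNHG11), 1 snoRNA each is shown in the DNA letters of GENCODE 29 on GRCh38. Capitals mark the first TGATGA (box C letters) and the last CTGA (box D letters) of box C/D snoRNAs, and the last ACA of the box H/ACA snoRNA. SNORD1A had no exact TGATGA. These mature snoRNAs are not polyadenylated and were not themselves measured.
SNORD50B of SNHG5, chr6:85677589-85677658, minus strand: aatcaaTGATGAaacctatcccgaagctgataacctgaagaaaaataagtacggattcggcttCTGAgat
SNORD1A of SNHG16, chr17:76561634-76561705, plus strand: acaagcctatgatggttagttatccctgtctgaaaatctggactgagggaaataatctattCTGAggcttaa
SNORD104 of SNHG25, chr17:64146083-64146152, plus strand: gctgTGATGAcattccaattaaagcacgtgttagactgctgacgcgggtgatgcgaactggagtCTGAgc
SNORA60 of SNHG11, chr20:38449370-38449503, plus strand: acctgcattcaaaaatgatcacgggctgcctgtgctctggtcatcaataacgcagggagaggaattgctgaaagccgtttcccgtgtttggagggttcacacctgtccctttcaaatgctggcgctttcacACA

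RefSeq promoter windows, 250 bases before to 50 bases after the start on GRCh38.p14, were matched for 8 of the 10 listed hosts, all but SNHG6 and SNHG25. The E-box letters CACGTG were in 0 of the 8 on either strand, against 7.435% of 27305 promoters of the same length, and CCGGAAG was in 0 of 8 against 10.67%. TATAAA was in 2 of 8, SNHG1 and SNHG11, against 11.95%. CTTTC was in 3 of 8, SNHG8, SNHG12 and SNHG16, against 54.85%. The 2 windows shown belong to the hosts with the highest and the lowest nuclear log2 change under JQ1-VHL. Capitals mark TTTATA, which is TATAAA on the other strand, near the end of the SNHG11 window that is far from the start. SNHG5 held no exact match to the 4 motifs, although its window reads ctatataagg shortly before the start. Only exact letters were searched, and a role of any site was not tested.
SNHG5 promoter, chr6:85678684-85678983, minus strand: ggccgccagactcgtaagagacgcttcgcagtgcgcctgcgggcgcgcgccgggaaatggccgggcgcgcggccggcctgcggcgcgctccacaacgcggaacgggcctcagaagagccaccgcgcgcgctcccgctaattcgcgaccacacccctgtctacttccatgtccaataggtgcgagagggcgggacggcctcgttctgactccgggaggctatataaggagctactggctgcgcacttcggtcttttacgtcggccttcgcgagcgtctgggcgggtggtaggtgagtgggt
SNHG11 promoter, chr20:38446404-38446703, plus strand: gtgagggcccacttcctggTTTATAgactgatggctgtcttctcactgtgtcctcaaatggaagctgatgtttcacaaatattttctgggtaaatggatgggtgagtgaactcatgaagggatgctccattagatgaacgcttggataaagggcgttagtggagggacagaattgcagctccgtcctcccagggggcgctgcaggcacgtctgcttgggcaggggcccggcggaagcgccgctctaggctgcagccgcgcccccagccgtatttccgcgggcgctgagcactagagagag

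Values are T-to-C reads scaled by the authors with an ERCC factor, called units, summed over the intervals of a gene. The ERCC RNA was added per mass of recovered RNA, so a unit is per RNA mass and not per cell, and fewer labelled cells and less new RNA per cell cannot be told apart. For "rescaled" values, each library was further divided by its own median-of-ratios factor, which places a gene against the typical gene. Libraries held 1584517 to 6773386 whole reads, of which the 9 hosts took 0.0599 to 0.149% in the nucleus, 0.0288 to 0.0628% in total RNA and 0.0177 to 0.0275% in the cytoplasm. JQ1-VHL nuclear replicate 3 stood apart with the fewest reads and the lowest factor, 0.168, against 0.466 and 0.643 in the other 2 libraries of its group. Factors in the DMSO groups were spread as widely, at 1.81, 0.338 and 2.86 in cytoplasmic replicates 1 to 3. Cell type markers went with the label: 9 of 9 luminal breast genes had reads, at sums of 5932 to 9957 units in the JQ1-VHL nuclear libraries, against 18557 to 28870 units in the DMSO nuclear libraries, and of 8833 to 110462 units in the other fractions. Of 11 markers of other lineages, 9 were not in the table, and COL1A1 and ALB together summed to 99.8 to 238 units in the JQ1-VHL nuclear libraries, against 348 to 631 units in the DMSO nuclear libraries, and to 105 to 1069 units in the other fractions. The part that these sums play in any result was not tested. MYC, a gene known to depend on BET proteins, had a nuclear log2 change of -5.37 ± 1.00 (SE, limma adjusted p = 3.9e-05) under JQ1-VHL.

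In the nucleus, new RNA of the typical gene was lower under JQ1-VHL, and the snoRNA hosts lay on both sides of it, from SNHG5 and SNHG1 above to SNHG11 below. Of the 9 hosts, 1 fell on the ERCC scale, SNHG11, and 0 rose, where 33.7% of all tested genes fell and 0.177% rose. The median log2 change of the hosts was -1.28, against -1.82 over all tested genes, and 6 of 9 hosts lay above that median, a position that by its definition about 50% of genes hold. In the batch pairs of replicates 1 and 2, 8 of 9 hosts lay above the median of their own pair, and in that of replicate 3 only 3 of 9, SNHG1, SNHG5 and GAS5. After rescaling, 3 hosts rose, SNHG5, SNHG1 and GAS5, and 0 fell, where 18.2% of tested genes rose and 12.5% fell. The rescaled median was 0.59 for the hosts and -0.01 for all tested genes. Without JQ1-VHL nuclear replicate 3, 0 hosts and 228 genes fell on the ERCC scale, in place of 1 host and 3435 genes, and without DMSO nuclear replicate 1, 0 hosts and 301 genes fell. Calls used limma on log2(value + 1) with Benjamini-Hochberg adjustment at 0.05 over the 10191 genes, and ± on a log2 change is its SE.

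**Figure D1:**
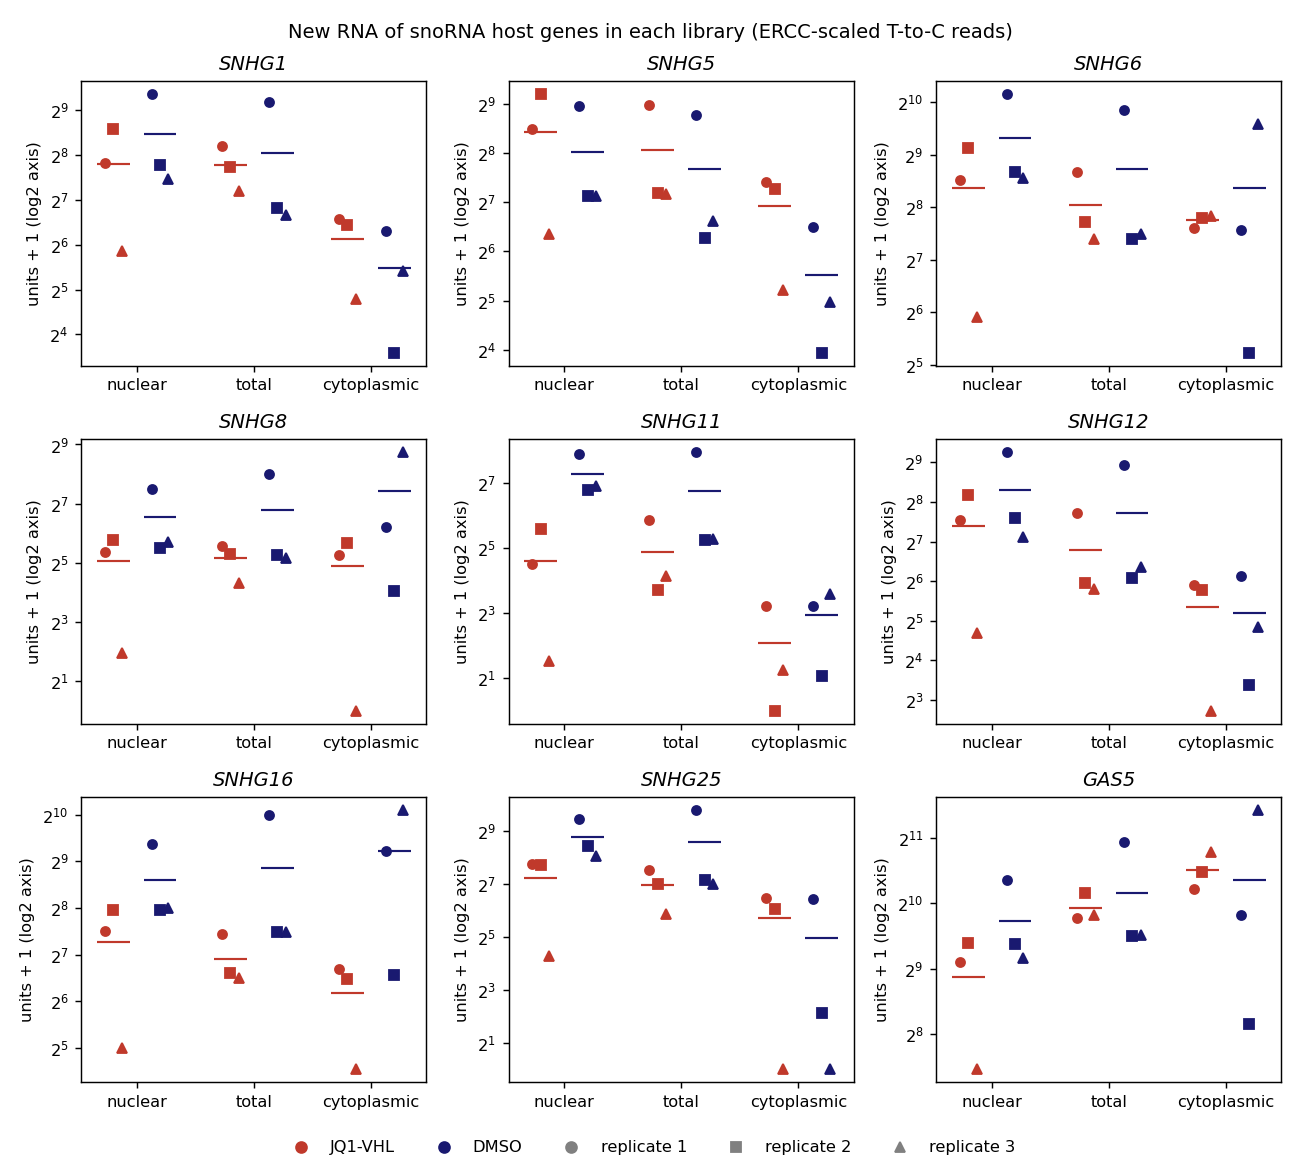
Units plus 1 on a log2 axis for the 9 hosts, 1 panel each, with a point per library, JQ1-VHL in red left of DMSO in dark blue within each fraction, marker shapes for replicates 1 to 3 and a line at each group's mean (n = 3). SNHG16 sits at 103, 88.2 and 22.3 units in the cytoplasm under JQ1-VHL, and JQ1-VHL nuclear replicate 3 is the lowest nuclear library for all 9 hosts.

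SNHG5, host of SNORD50A and SNORD50B (chr6:85660950-85678748, GRCh38, GENCODE 29), had the highest nuclear log2 change among the hosts. Its nuclear RNA had 360.1, 587 and 81.3 units under JQ1-VHL, against 497, 139 and 138 units under DMSO. The groups overlapped, and its ERCC-scale change of 0.28 ± 0.89 (limma adjusted p = 0.771) was higher than that of 98.3% of tested genes. Rescaled, SNHG5 had 772, 913 and 485 rescaled units under JQ1-VHL, against 223, 126 and 137 rescaled units under DMSO. Each of the 3 JQ1-VHL libraries then lay above each DMSO library. The rescaled log2 change was 2.15 ± 0.51 (limma adjusted p = 0.0042), with 1.79, 2.84 and 1.81 in the pairs of libraries that share a batch number. The rise held with each of the 6 nuclear libraries left out in turn (limma adjusted p 0.00575 to 0.0212).

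SNHG1, which holds 8 box C/D snoRNAs (chr11:62851988-62855914), and GAS5, the growth arrest transcript with 10 (chr1:173863900-173868882), were the other 2 hosts that rose after rescaling. In the nucleus SNHG1 had 227, 379.7 and 57.0 units under JQ1-VHL, against 658, 219 and 176 units under DMSO. Rescaled, it had 486, 591 and 340.3 rescaled units under JQ1-VHL, against 294, 199 and 176 rescaled units under DMSO, and the groups did not overlap. Its log2 change was -0.79 ± 0.90 on the ERCC scale (limma adjusted p = 0.439) and 1.08 ± 0.38 rescaled (adjusted p = 0.0397), so the sign differed between the scales. The rescaled call was lost without JQ1-VHL nuclear replicate 1 or 2 (limma adjusted p = 0.0827 and 0.123) and without DMSO nuclear replicate 2 or 3 (adjusted p = 0.109 and 0.133).

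Nuclear GAS5 had 547, 671 and 175 units under JQ1-VHL, against 1306, 666 and 570.4 units under DMSO. Rescaled, the 3 JQ1-VHL libraries were close together at 1174, 1044 and 1047 rescaled units, and all lay above DMSO at 585, 605 and 569 rescaled units. The log2 change was -0.98 ± 0.81 on the ERCC scale (limma adjusted p = 0.296) and 0.89 ± 0.31 rescaled (adjusted p = 0.0373), again of opposite sign. The rescaled change was 0.83 to 0.92 with any 1 of the 6 nuclear libraries left out, and its call was lost each time (limma adjusted p 0.0591 to 0.0893). GAS5 overlaps GAS5-AS1 and ZBTB37 on the other strand, and the strand counted is not given in the sources used here.

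SNHG11, the box H/ACA host of SNORA60 and SNORA71E (chr20:38446578-38450921), fell the furthest. It had 21.8, 47.1 and 1.90 units under JQ1-VHL, against 238, 109 and 119 units under DMSO. All 3 JQ1-VHL libraries lay below all 3 DMSO libraries. The log2 change was -3.32 ± 1.09 (limma adjusted p = 0.0154), with -3.39, -1.19 and -5.38 in the batch pairs. JQ1-VHL nuclear replicate 3 held only 4 SNHG11 reads, near the floor of 3 reads per library, and without it the change was -2.15 (adjusted p = 0.248). Without DMSO nuclear replicate 1 it was -2.97 (adjusted p = 0.125), and rescaled it was -1.63 ± 0.73 (adjusted p = 0.095, and 0.0472 without JQ1-VHL nuclear replicate 2). Rescaled without JQ1-VHL nuclear replicate 3, it was -0.87 (limma adjusted p = 0.419). Over the alternatives other than rescaled fits with a library left out, its limma, edgeR or DESeq2 adjusted p ran from 0.00105 to 0.248.

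The other 5 hosts were not called in the nucleus on either scale. SNHG25, the short host of SNORD104 (chr17:64145970-64146476), had 214, 207 and 18.1 units under JQ1-VHL, against 703, 341 and 266 units under DMSO, a log2 change of -2.08 ± 0.95 (limma adjusted p = 0.0711). With batch number as a block, the same change had a limma adjusted p of 0.046, and without JQ1-VHL nuclear replicate 2 the change was -2.64 (adjusted p = 0.0393). SNHG8, host of SNORA24 (chr4:118278709-118279823), had 39.9, 54.2 and 2.85 units under JQ1-VHL, against 179, 44.3 and 51.7 units under DMSO. SNHG16, host of the SNORD1 snoRNAs (chr17:76557766-76565348), had 179, 247 and 30.9 units under JQ1-VHL, against 663, 247 and 255 units under DMSO. The highest JQ1-VHL library of SNHG16 lay just above the lowest DMSO library. SNHG6, host of SNORD87 (chr8:66921684-66926398), had 366, 558 and 58.9 units under JQ1-VHL, against 1139, 405 and 376 units under DMSO, and SNHG12 (chr1:28578538-28583132) had 187, 287 and 24.7 units under JQ1-VHL, against 613, 192 and 137 units under DMSO. The ERCC-scale log2 changes were -1.88 for SNHG8, -1.63 for SNHG16, -1.28 for SNHG6 and -1.18 for SNHG12 (limma adjusted p 0.116 to 0.275). Rescaled, these changes were -0.14, 0.23, 0.59 and 0.67 in the same order, and SNHG25 had -0.23. SNHG6 overlaps MCMDC2, SNHG12 overlaps TRNAU1AP and SNHG16 overlaps AC015802.6 on the other strand, so the source of part of their reads is uncertain.

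**Figure D2:**
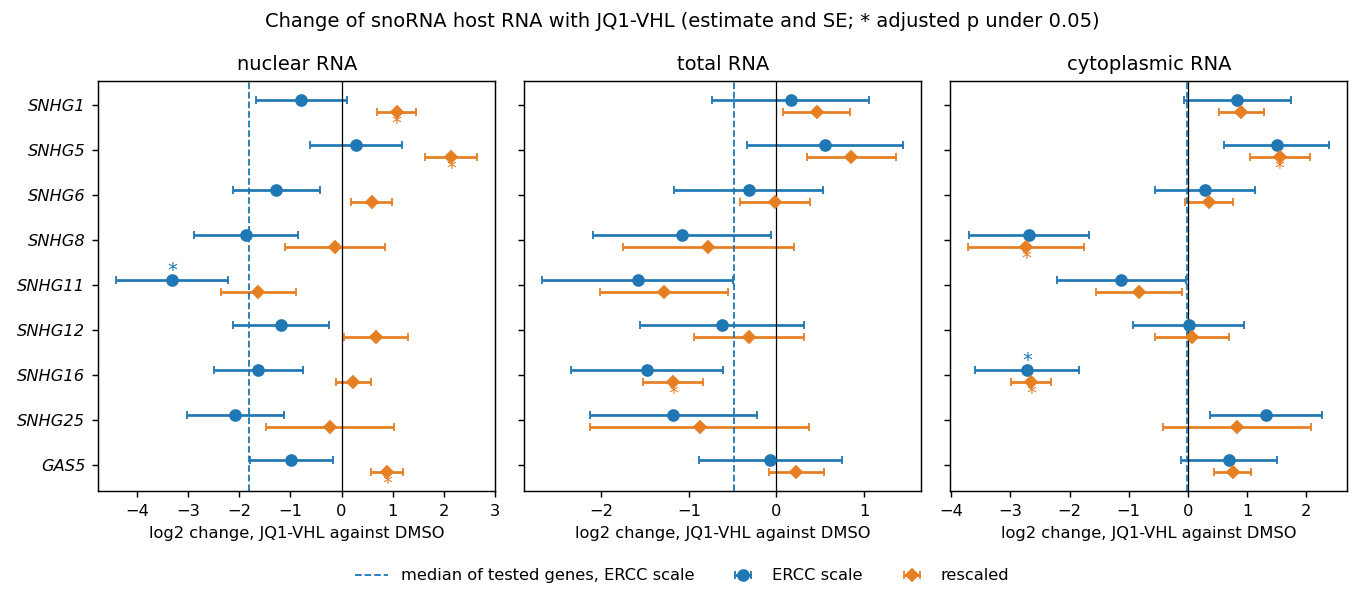
Log2 change of each host under JQ1-VHL against DMSO with its SE in the 3 fractions, on the ERCC scale (blue circles) and rescaled (orange diamonds), where a star marks a limma adjusted p under 0.05 and the dashed line is the ERCC-scale median of tested genes. SNHG5 lies to the right of that median in all 3 fractions, and SNHG16 is at -2.72 in the cytoplasm.

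In total RNA no host was called on the ERCC scale, where 2.79% of tested genes fell and 0.245% rose. By limma 0 hosts had an unadjusted p under 0.05, where 1714 of 10191 tested genes did. With the ERCC factors, edgeR and DESeq2 also called 0 hosts. Over all tested genes edgeR called 231 lower and 14 higher, and DESeq2 called 881 lower and 33 higher. The median log2 change was -0.62 for the hosts and -0.49 for all tested genes. After rescaling 1 host fell, SNHG16, where 18.3% of tested genes fell and 12.2% rose. SNHG16 had 172, 96.3 and 88.8 units under JQ1-VHL, against 1023, 179 and 178 units under DMSO, and all JQ1-VHL libraries lay below all DMSO libraries. Its log2 change was -1.48 ± 0.87 on the ERCC scale (limma adjusted p = 0.405) and -1.18 ± 0.34 rescaled (adjusted p = 0.0166), and the rescaled batch pairs gave -1.25, -1.20 and -1.11. The rescaled call was lost without JQ1-VHL total replicate 2 (limma adjusted p = 0.0529), JQ1-VHL total replicate 3 (adjusted p = 0.0732) or DMSO total replicate 1 (adjusted p = 0.0809). SNHG5 had 506, 144 and 143 units under JQ1-VHL, against 435, 76.5 and 97.4 units under DMSO, with all 3 batch pairs above 0 at 0.22, 0.91 and 0.55 log2. SNHG11 had 57.7, 12.0 and 16.8 units under JQ1-VHL, against 248, 37.0 and 38.0 units under DMSO, with all 3 pairs below 0 at -2.08, -1.54 and -1.13. The SNHG11 groups overlapped, with JQ1-VHL total replicate 1 above DMSO replicates 2 and 3, and DMSO total replicate 1 was the highest DMSO library for all 9 hosts. The ERCC-scale log2 changes of the 9 hosts ran from -1.59 for SNHG11 to 0.56 for SNHG5, with -0.07 for GAS5, 0.16 for SNHG1, -0.32 for SNHG6, -0.62 for SNHG12, -1.08 for SNHG8 and -1.18 for SNHG25 between them.

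In the cytoplasm SNHG16 fell on both scales. It had 103, 88.2 and 22.3 units under JQ1-VHL, against 599, 92.8 and 1091 units under DMSO. JQ1-VHL replicate 1 and DMSO replicate 2 overlapped on this scale, and the log2 change was -2.72 ± 0.87 (limma adjusted p = 0.0478). This made 1 of 9 hosts lower and 0 higher, where 3.67% of tested genes fell and 0.226% rose. Rescaled, SNHG16 had 77.0, 58.1 and 29.6 rescaled units under JQ1-VHL, against 332, 275 and 381 rescaled units under DMSO, with every JQ1-VHL library far below every DMSO library. The rescaled change was -2.65 ± 0.34 (limma adjusted p = 7.2e-05), with batch pairs at -2.09, -2.22 and -3.65, and it held with each of the 6 cytoplasmic libraries left out (adjusted p 5.5e-05 to 5.9e-04). The ERCC-scale call was lost without JQ1-VHL cytoplasmic replicate 1 (limma adjusted p = 0.0555), 2 (0.061) or 3 (0.498), and without DMSO cytoplasmic replicate 1 (0.265) or 3 (0.336). Rescaled fits with a library left out aside, the limma, edgeR or DESeq2 adjusted p of SNHG16 ran from 7.2e-05 to 0.527 over the alternatives.

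Rescaling called 2 further hosts in the cytoplasm, SNHG5 as higher and SNHG8 as lower, where 14.8% of tested genes rose and 15.9% fell. SNHG5 had 169.6, 153 and 36.3 units under JQ1-VHL, against 89.2, 14.4 and 30.3 units under DMSO, and all 3 batch pairs were above 0 at 0.92, 3.32 and 0.25 log2. Rescaled it had 127, 101 and 48.1 rescaled units under JQ1-VHL, against 49.3, 42.5 and 10.6 rescaled units under DMSO, a change of 1.55 ± 0.51 (limma adjusted p = 0.0277). That call was lost without JQ1-VHL cytoplasmic replicate 1 (adjusted p = 0.0979), replicate 2 (adjusted p = 0.0728) or DMSO cytoplasmic replicate 3 (adjusted p = 0.143, at a change of 0.88). SNHG8 had 37.7, 49.5 and 0 units under JQ1-VHL, against 72.7, 15.5 and 427 units under DMSO, with an ERCC-scale change of -2.68 ± 1.02 (adjusted p = 0.125). It passed on that scale without JQ1-VHL cytoplasmic replicate 2 (adjusted p = 0.0392) or DMSO cytoplasmic replicate 2 (0.0446). Rescaled, its change was -2.73 ± 0.98 (adjusted p = 0.0407). JQ1-VHL cytoplasmic replicate 3 had 0 SNHG8 reads, which at 3 reads allows up to 4.19 units, and without it the rescaled change was -1.08 (adjusted p = 0.248). The call was also lost without DMSO cytoplasmic replicate 1, 2 or 3 (adjusted p = 0.0537, 0.0626 and 0.139).

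Cytoplasmic GAS5 had 1192, 1426 and 1751 units under JQ1-VHL, against 902, 283 and 2740.4 units under DMSO. Its DMSO libraries spread widely and enclosed the JQ1-VHL libraries, and its change was 0.69 ± 0.81 on the ERCC scale (limma adjusted p = 0.884) and 0.76 ± 0.31 rescaled (adjusted p = 0.0698). The rescaled change of GAS5 passed without JQ1-VHL cytoplasmic replicate 1 (0.0335), JQ1-VHL cytoplasmic replicate 2 (0.0435) or DMSO cytoplasmic replicate 3 (0.0407). SNHG6 had 193, 222 and 228 units under JQ1-VHL, against 188, 36.4 and 766 units under DMSO, and SNHG1 had 94.2, 86.0 and 26.5 units under JQ1-VHL, against 77.6, 11.0 and 41.3 units under DMSO. SNHG12 had 58.6, 53.8 and 5.59 units under JQ1-VHL, against 69.3, 9.39 and 27.5 units under DMSO. The change of SNHG1, 0.90 ± 0.38 rescaled (adjusted p = 0.0787), passed without JQ1-VHL cytoplasmic replicate 3 (0.0442) or DMSO cytoplasmic replicate 1 (0.037). The other 2 hosts had few reads here, or none in some libraries. SNHG11 had 4, 0 and 1 reads under JQ1-VHL, against 5, 2 and 4 reads under DMSO, and SNHG25 had 42, 30 and 0 reads under JQ1-VHL, against 52, 6 and 0 reads under DMSO. Log2 changes on the ERCC scale were 0.84 for SNHG1, 0.29 for SNHG6, 0.01 for SNHG12, -1.13 for SNHG11 and 1.32 for SNHG25, and none of the 5 was called.

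The effect of JQ1-VHL in the nucleus was then set against its effect in the cytoplasm. On the ERCC scale 0 of 9 hosts and 0 of 10191 genes were called by limma, with an unadjusted p under 0.05 for 1 host, SNHG25, and 1564 genes, so 0% of tested genes were higher and 0% lower. edgeR and DESeq2 with the ERCC factors also called 0 hosts, and they called 0 and 24 genes. The median difference was -1.56 for the hosts and -1.60 for all tested genes. Rescaled, SNHG16 was called with a nuclear minus cytoplasmic difference of 2.88 ± 0.49 (limma adjusted p = 0.00421), where 1.45% of tested genes were called higher and 1.37% lower. Its rescaled change was 0.23 in the nucleus and -2.65 in the cytoplasm. The difference was called with each of the 12 libraries of these fractions left out in turn (adjusted p 9.5e-04 to 0.0201). SNHG8 had a rescaled difference of 2.60 ± 1.38 (adjusted p = 0.313), which did not pass. Without JQ1-VHL cytoplasmic replicate 3, which had 0 SNHG8 reads, it was 0.94 (adjusted p = 0.625), against 2.497 for SNHG16 without the same library. SNHG5 had 0.60 ± 0.72 (adjusted p = 0.691).

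Nuclear RNA was also compared with cytoplasmic RNA within each treatment. Both are values per mass of RNA of their own fraction, so a ratio does not give the number of molecules in each compartment. Under JQ1-VHL 1 of 9 hosts was higher in the nucleus on the ERCC scale, SNHG25, where 3.01% of tested genes were higher and 28.8% lower. Rescaled, 8 of 9 were higher, all but GAS5, where 38.7% of tested genes were higher and 26% lower. Under DMSO 5 of 9 hosts were higher in the nucleus on the ERCC scale, where 14.7% of tested genes were higher and 5.92% lower. They were SNHG25, SNHG11, SNHG12, SNHG1 and SNHG5. Rescaled, SNHG6 was added, making 6, where 33% of tested genes were higher and 23.7% lower. The median log2 ratio on the ERCC scale was 1.39 for the hosts and -0.82 for all tested genes under JQ1-VHL, and 2.60 and 0.63 under DMSO.

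SNHG25 had the highest nuclear to cytoplasmic ratio among the hosts under DMSO, with 703, 341 and 266 units in the nucleus and 85.9, 3.31 and 0 units in the cytoplasm. The groups did not overlap. The log2 ratio was 5.80 ± 0.95 (limma adjusted p = 3.3e-06), higher than that of 99.9% of tested genes, although cytoplasmic replicate 3 had 0 reads (up to 8.26 units at 3 reads). Without DMSO cytoplasmic replicate 2 the ratio was 5.43 and lost its call (adjusted p = 0.0737). With a pseudocount of 0.1 in place of 1 it was 7.02 (adjusted p = 0.056). Its limma, edgeR or DESeq2 adjusted p ran from 1.5e-08 to 0.0737 over the alternatives other than rescaled fits with a library left out. Under JQ1-VHL SNHG25 had 214, 207 and 18.1 nuclear and 88.0, 64.5 and 0 cytoplasmic units, a log2 ratio of 2.40 ± 0.95 (adjusted p = 0.0398). Here cytoplasmic replicate 3 decided the call: it had 0 reads, and without it the ratio was 0.31 (adjusted p = 0.862). The call was also lost without JQ1-VHL nuclear replicate 1 (adjusted p = 0.24) or 2 (adjusted p = 0.201). Rescaled, the ratio was 4.15 ± 1.25 (adjusted p = 0.00757), and 2.23 (adjusted p = 0.0629) without JQ1-VHL cytoplasmic replicate 3.

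SNHG11 followed under DMSO with 238, 109 and 119 nuclear and 8.26, 1.10 and 11.0 cytoplasmic units, a log2 ratio of 4.57 ± 1.09 (limma adjusted p = 0.00107). Its cytoplasmic values rested on 5, 2 and 4 reads under DMSO and 4, 0 and 1 reads under JQ1-VHL. These counts lie near or below the floor of 3 reads. SNHG11 had 21.8, 47.1 and 1.90 nuclear and 8.38, 0 and 1.40 cytoplasmic units under JQ1-VHL, a ratio of 2.38 ± 1.09 (adjusted p = 0.0802, and 0.0494 with batch number as a block). It passed without JQ1-VHL nuclear replicate 3 (0.0154) or JQ1-VHL cytoplasmic replicate 1 (0.0344), as did SNHG12 without JQ1-VHL nuclear replicate 3 (0.0138). SNHG12 had a DMSO ratio of 3.20 ± 0.94 (adjusted p = 0.00779), SNHG1 of 3.11 ± 0.90 (0.00685) and SNHG5 of 2.60 ± 0.89 (0.0243). These 3 calls were lost without DMSO nuclear replicate 1 (adjusted p = 0.103, 0.0908 and 0.196 in that order), and that of SNHG5 without DMSO cytoplasmic replicate 2 (0.0669). SNHG6 had a DMSO ratio of 1.67 ± 0.85 (adjusted p = 0.146, and 0.0163 without DMSO cytoplasmic replicate 3). With its highest interval in place of the sum, the ratio was 3.56 (limma adjusted p = 3.76e-04). Its 2 intervals went opposite ways under DMSO. Interval 2 had means of 559 nuclear and 56.5 cytoplasmic units, and interval 1 had 80.7 and 274 units. After rescaling the 6 DMSO calls held with each library of these groups left out.

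GAS5 had 1306, 666 and 570.4 nuclear and 902, 283 and 2740.4 cytoplasmic units under DMSO, a log2 ratio of -0.17 ± 0.81 (limma adjusted p = 0.91). Under JQ1-VHL its ratio was -1.84 ± 0.81 (adjusted p = 0.0689), with all 3 nuclear libraries below all 3 cytoplasmic libraries. SNHG16 had a DMSO ratio of -0.18 ± 0.87 (adjusted p = 0.908) and SNHG8 of -0.09 ± 1.02 (adjusted p = 0.961). SNHG16, SNHG8 and GAS5 were thus the hosts with DMSO ratios close to 0. Rescaled under JQ1-VHL, SNHG16 had a ratio of 2.54 ± 0.34 (adjusted p = 4.5e-06), against -0.34 ± 0.34 (adjusted p = 0.406) under DMSO. The rescaled ratio of SNHG8 under JQ1-VHL was 2.36 ± 0.98 (adjusted p = 0.0412). Without JQ1-VHL cytoplasmic replicate 3 it was 0.70 (adjusted p = 0.372), and it also lost its call without JQ1-VHL nuclear replicate 1 or 2 (adjusted p = 0.132 and 0.13).

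**Figure D3:**
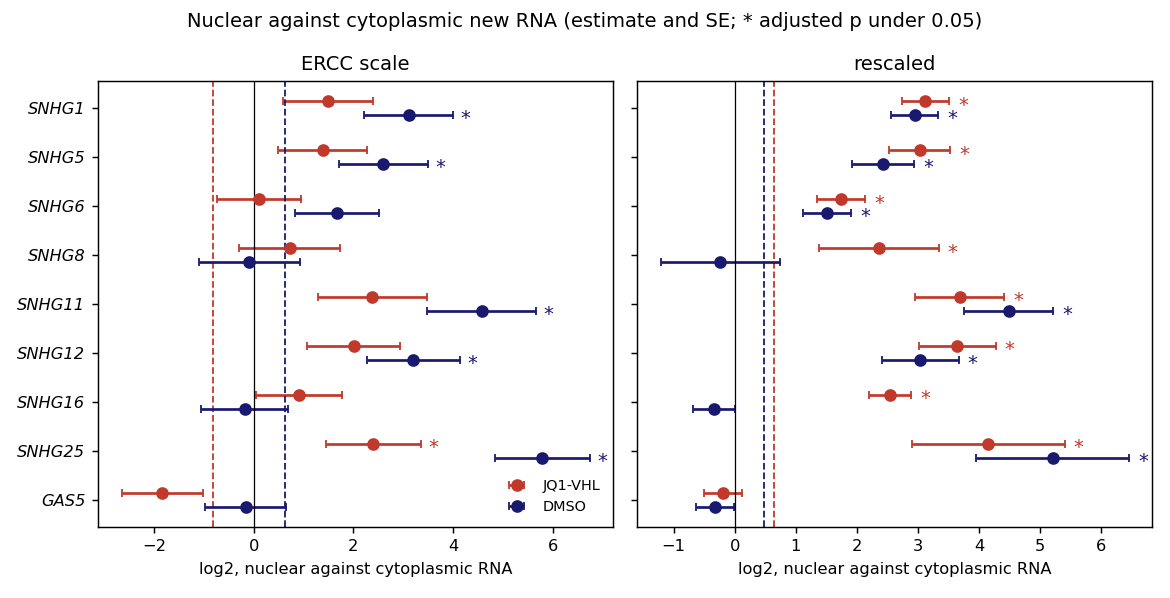
Log2 ratio of nuclear to cytoplasmic RNA of each host with its SE, JQ1-VHL in red above DMSO in dark blue, on the ERCC scale (left) and rescaled (right), with stars at a limma adjusted p under 0.05 and dashed lines at the medians of tested genes. On the rescaled panel SNHG16 is at 2.54 under JQ1-VHL and -0.34 under DMSO, while GAS5 is at -0.20 and -0.33.

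Reads were also counted per interval, numbered within a gene. The positions of the intervals are not given. Their number equalled the number of gaps between GENCODE 29 exon blocks for SNHG1 (2), SNHG5 (3) and SNHG8 (1) but not for the other 6 hosts. SNHG11, SNHG12 and SNHG25 had 2 intervals each, SNHG16 had 3 and GAS5 had 5, which equalled their number of exon blocks. SNHG6 had 2 intervals and 3 gaps. Whether intervals are introns or exons thus could not be told from their number. A read pair may enter more than 1 interval, so shares are described and not tested. The gene sums and read totals tested above add these intervals, so they may count such a pair more than once. For SNHG16 all 3 intervals were low in the cytoplasm under JQ1-VHL. Interval 1 had 12, 15 and 4 reads under JQ1-VHL, against 112, 53 and 91 reads under DMSO. Interval 2 had 12, 8 and 5 reads, against 113, 52 and 113 reads under DMSO, and interval 3 had 25, 18 and 7 reads, against 138, 63 and 192 reads under DMSO.

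SNHG5 held a different split of reads between the treatments. In the nucleus interval 1 held 10.9, 10.7 and 13.5% of SNHG5 reads in the JQ1-VHL libraries (74, 97 and 23 reads), against 1.32, 4.03 and 3.41% in the DMSO libraries (8, 10 and 10 reads). The shares did not overlap. In total RNA the shares were 14.7, 16.7 and 13.4% under JQ1-VHL, against 7.87, 3.28 and 5.47% under DMSO, again with no overlap. Interval 3, which held most reads, had 83.5, 82.1 and 70.8% in the nucleus under JQ1-VHL, against 96.5, 92.7 and 92.8% under DMSO. Shares without overlap were not particular to SNHG5. In SNHG16, interval 3 held 56.7, 57.2 and 58.5% of nuclear reads under JQ1-VHL, against 49.5, 54.5 and 53.0% under DMSO. Its interval 2 held 13.6, 17.5 and 16.2% in total RNA under JQ1-VHL, against 21.3, 26.0 and 21.8% under DMSO.

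SNHG6 differed by fraction and not visibly by treatment. Its interval 1 held 8.13, 11.1 and 19.4% of its nuclear reads under JQ1-VHL, against 11.0, 15.4 and 14.5% under DMSO. In the cytoplasm the same interval held 50, 48.5 and 92.0% under JQ1-VHL, against 54.4, 74.2 and 90.3% under DMSO. Every cytoplasmic share was above every nuclear share. Interval 2 of SNHG16 differed by fraction too, with 17.4, 17.0 and 16.0% in the nucleus and 31.1, 31.0 and 28.5% in the cytoplasm under DMSO. The 2 intervals of SNHG25 held near-equal reads, for example 436, 312 and 298 reads in interval 1 and 422, 295 and 268 reads in interval 2 of the DMSO nuclear libraries. Intervals 1 and 2 of GAS5 did so too, with 190, 189 and 355 and 191, 188 and 352 reads in the DMSO cytoplasmic libraries.

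**Figure D4:**
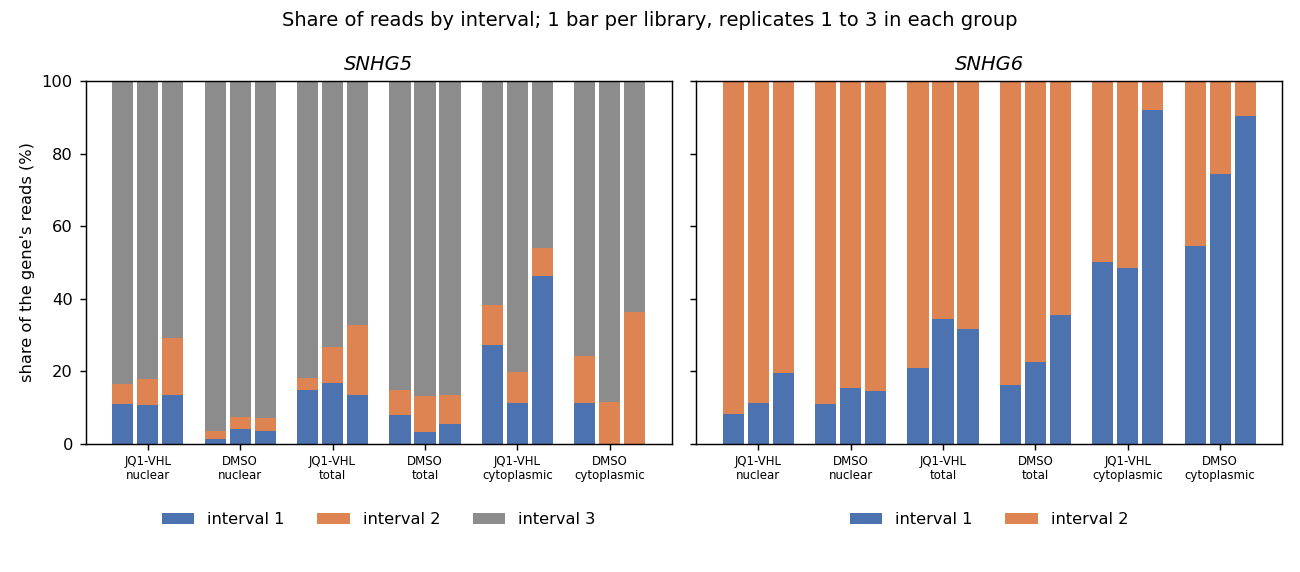
Share of a gene's reads in each of its intervals for SNHG5 (left) and SNHG6 (right), 1 stacked bar per library, in groups of 3 with JQ1-VHL left of DMSO in each fraction. Interval 1 of SNHG5 (blue) takes 10.9, 10.7 and 13.5% of nuclear reads under JQ1-VHL and 1.32, 4.03 and 3.41% under DMSO, and interval 1 of SNHG6 takes 48.5 to 92.0% of its cytoplasmic reads.

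Across the 18 libraries, the hosts varied together to different degrees. For rescaled log2 values, which share each library's factor, the correlation of a host with the mean of the other 8 was 0.95 for SNHG12, 0.89 for SNHG1, 0.77 for SNHG5, 0.77 for SNHG25, 0.76 for SNHG11 and 0.71 for SNHG6. It was 0.44 for SNHG16, 0.38 for SNHG8 and -0.39 for GAS5. SNHG1 and SNHG5 correlated at 0.94 (Pearson, n = 18), and SNHG8 and SNHG16 at 0.81. The 5 non-member genes most like the mean of the hosts were PSMA5 (0.973), a proteasome subunit, FOXK2 (0.965), a forkhead factor, TPRN (0.959), IMPDH2 (0.957), an enzyme of guanine nucleotide synthesis, and SENP5 (0.954), a SUMO protease. These values follow the fractions as well as the treatment and carry no test.

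Of 20 other noncoding snoRNA hosts listed, 11 were tested in the nucleus, where 3 fell and 0 rose on the ERCC scale, with a median log2 change of -1.60. Over all tested genes 33.7% fell and 0.177% rose, at a median of -1.82, so the share that fell was near this background. SNHG17 changed by -2.60 (limma adjusted p = 0.0166), SNHG15 by -3.07 (0.0249) and SNHG29 by -2.32 (0.0422). The highest p-values belonged to SNHG14, host of the imprinted SNORD115 and SNORD116 clusters, at -0.39 (adjusted p = 0.666) and DANCR at -0.86 (0.357). Rescaled, where 12.5% of tested genes fell and 18.2% rose, 0 fell and 2 rose, SNHG14 by 1.47 (adjusted p = 1.8e-04) and DANCR by 1.00 (0.00122). Between fractions under DMSO, 2 of the 11 were higher in the nucleus on the ERCC scale, SNHG10 by 3.31 (adjusted p = 0.0269) and SNHG30 by 2.58 (0.0468), and 1 was lower, DANCR by -2.32 (0.0293), where 14.7% of tested genes were higher and 5.92% lower. SNHG10 and SNHG30 are named after their values were seen.

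Protein-coding snoRNA hosts, many of them ribosomal protein and translation factor genes, numbered 33 tested of 35 listed. On the ERCC scale 5 fell and 0 rose in the nucleus, at a median of -0.93, where 33.7% of all tested genes fell and 0.177% rose, at a median of -1.82. Rescaled, 1 fell (DKC1) and 19 rose, at a median of 0.94, where 12.5% of tested genes fell and 18.2% rose, at a median of -0.01. The lowest adjusted p belonged to DKC1 (-3.38, limma adjusted p = 0.00211), RABGGTB (-2.79, 0.0157) and WDR43 (-2.40, 0.023). The chaperone gene HSPA8 changed by -0.29 (adjusted p = 0.725) and the ribosomal protein gene RPL4 by -0.35 (0.661), and rescaled both rose, by 1.58 and 1.52 (adjusted p = 2.6e-05 and 2.1e-04). Between fractions under DMSO 0 of 33 were higher in the nucleus and 10 lower on the ERCC scale, at a median log2 ratio of -0.92, where 14.7% of tested genes were higher and 5.92% lower, at a median of 0.63. The 9 noncoding hosts had a median of 2.60, while the 11 other noncoding hosts tested had 0.99, so a high median was not shared by both noncoding lists.

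Of the proteins that build snoRNPs, 16 of 17 listed genes were tested, and 4 fell and 0 rose in the nucleus on the ERCC scale, at a median of -1.95, where 33.7% of all tested genes fell and 0.177% rose, at a median of -1.82. DKC1, the pseudouridine synthase of box H/ACA particles, is in this list too, GAR1 changed by -4.03 (limma adjusted p = 0.00231) and NOP10 by -3.14 (0.024), both box H/ACA core proteins. NOP10 and NOP58 are named after their values were seen. FBL, the methyltransferase of box C/D particles, changed by -2.70 (0.018). NHP2 at -0.85 (adjusted p = 0.36) and NOP56 at -0.93 (0.316) had the highest p-values. Rescaled, where 12.5% of tested genes fell and 18.2% rose, 3 fell (DKC1, GAR1 and NOP10) and 3 rose, NOP56 by 0.94 (adjusted p = 0.00149), NOP58 by 0.95 (0.00572) and NHP2 by 1.01 (0.0149). Under DMSO 0 of the 16 were higher in the nucleus and 2 lower on the ERCC scale (NHP2 and SHQ1), where 14.7% of tested genes were higher and 5.92% lower.

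Of nonsense-mediated decay and exon junction factors, 15 of 18 listed were tested, and 6 fell and 0 rose in the nucleus, at a median of -1.79, where 33.7% of all tested genes fell and 0.177% rose, at a median of -1.82. Both were thus near the background. MAGOHB, an exon junction core protein, changed by -5.01 (limma adjusted p = 5.7e-04), SMG9 by -3.23 (0.00454) and SMG5 by -2.49 (0.0228). The helicase gene EIF4A3 at -0.63 (adjusted p = 0.486) and the endonuclease gene SMG6 at -0.98 (0.34) had the highest p-values. Rescaled, where 12.5% of tested genes fell and 18.2% rose, 2 fell (MAGOHB and SMG9) and 2 rose, EIF4A3 by 1.24 (adjusted p = 9.8e-05) and MAGOH by 0.79 (0.00614). The central helicase gene UPF1 was not called on either scale, at -1.79 (adjusted p = 0.0699), and 0.07 rescaled. UPF1, MAGOH and SHQ1 are named after their values were seen.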

How the data were processed

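The deposited table gives T-to-C signal per interval and library, whole read counts divided by 1 ERCC factor per library, per its name and values. Per the submitters' processing notes, bcl2fastq, Trimmomatic 0.39, HISAT2, HTSeq and DESeq2 were used with builds GRCh37 (hg19) and dm3. T-to-C calling, the counting rule and strand are not given in the sources used here. Drosophila S2 cells were spiked in by cell count per the labels' protocols, and their reads were not used here.

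Values were summed per gene ID (12755), and genes with a mean of at least 10 units (10191) were tested as log2(value + 1) by limma 3.58.1 in R 4.3.3 with trend and robust eBayes, 6 group means and contrasts, two-sided, Benjamini-Hochberg adjusted at 0.05. On the ERCC scale limma estimated infinite prior degrees of freedom, so all genes of 1 level shared a spread, against 6.70 on the rescaled scale. Rescaling used median-of-ratios factors over 7799 genes. Whole reads were recovered for 100% of values within 0.01 of a read and tested with edgeR 4.0.16 and DESeq2 1.42.0 as alternatives. Alternative pseudocounts, no filter, the highest interval, a batch block, fewer groups and left-out libraries were also tried. The limma code was checked on simulated counts drawn without a scale error shared by all genes of a library. That check therefore does not cover false calls from such errors. Python 3.11.15, numpy 2.4.6, pandas 2.3.3 and matplotlib 3.10.9 were used for tables and figures.

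The labels give a batch number that equals the replicate number and pairs the libraries. Deviations from group means of libraries with the same number correlated at 0.27, -0.14 and 0.29 in the nucleus, 0.22, 0.08 and 0.16 in total RNA, and 0.06, -0.05 and 0.02 in the cytoplasm. Nothing in the labels says whether replicates came from separate cultures, so p-values measure the spread between these libraries. Reads have no molecular identifiers, so the floor of 3 reads covers counting error only.

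All hosts were named in each comparison, with up to 3 genes of lowest adjusted p and up to 2 of highest nuclear p from each of 4 lists, and the 5 genes most like the hosts. Hosts and lists were chosen with earlier results of these data known.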

Additional observations from a re-analysis of the deposited data

Results flagged for a closer look

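The effect of JQ1-VHL on SNHG16 differed between nuclear and cytoplasmic RNA after rescaling. The nuclear minus cytoplasmic difference in log2 change was 2.88 (limma adjusted p = 0.00421), and SNHG16 had a rescaled change of 0.23 in the nucleus and -2.65 in the cytoplasm. On the ERCC scale the same difference was 1.09 and was not called (adjusted p = 0.54). It was found by a test of the difference itself, and 1 of 9 hosts passed it. In the cytoplasm the 3 JQ1-VHL libraries had 49, 41 and 16 SNHG16 reads, against 363, 168 and 396 reads in the DMSO libraries.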

How the results depend on the processing

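On the ERCC scale 1 host was lower and 0 higher in the nucleus, beside 3435 of all genes lower and 18 higher. Rescaled, 3 hosts were higher and 0 lower (1854 genes higher, 1269 lower), and by edgeR with TMM 2 were higher and 0 lower (1513 and 1617 genes). In the nucleus 0 hosts were called with a pseudocount of 0.1 (2568 genes lower), 2 were lower with batch number as a replicate block (4238 genes lower), 3 were lower with only the groups compared (5334 genes lower), and 0 to 2 were lower with 1 library left out (228 to 4145 genes lower). In total RNA the 0 became 1 lower rescaled (1869 genes lower, 1243 higher) and 2 by edgeR with TMM, 1 lower and 1 higher (1639 and 2170 genes). In the cytoplasm the 1 lower became 3 rescaled, 2 lower and 1 higher (1620 and 1507 genes), and 3 by edgeR with TMM, 1 lower and 2 higher (1460 and 1527 genes). It became 0 with a pseudocount of 5, no filter, the highest interval or only the groups compared (212, 434, 258 and 0 genes lower, in place of 374), and 0 to 2 lower with 1 library left out (67 to 1257 genes lower). The 2 were lower without DMSO cytoplasmic replicate 2, where 1257 genes were lower. For the nuclear minus cytoplasmic effect the 0 became 1 higher rescaled (148 genes higher, 140 lower) and 1 higher by edgeR with TMM (108 and 237 genes). Between fractions under JQ1-VHL the 1 higher in the nucleus (307 genes higher) became 8 higher rescaled (3942 genes), 7 higher by edgeR with TMM (3736 genes), 2 higher with the block (455 genes), and 0 with a pseudocount of 5 (140 genes) or by edgeR with ERCC factors (266 genes). It became 4 with the highest interval, 3 higher and 1 lower (533 and 3237 genes), 2 with only the groups compared, 1 higher and 1 lower (250 and 3299 genes), and 0 to 3 higher with 1 library left out (55 to 609 genes higher). Under DMSO the 5 higher (1500 genes) became 2 higher with only the groups compared (583 genes) and 2 to 6 higher with 1 library left out (442 to 1847 genes higher). Leaving out libraries on the rescaled scale was an alternative chosen after seeing the data. It gave 1 to 2 called hosts in the nucleus (1 to 2 higher and 0 to 1 lower), in place of 3 higher. In total RNA it gave 0 to 1 lower, in place of 1. Calls over all tested genes were not counted for these fits. Whether the drop in called hosts was particular to the hosts therefore cannot be told. The batch block changed no calls of hosts other than nuclear SNHG25 and, between fractions under JQ1-VHL, SNHG11.

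Signs differed between settings too. In the nucleus the log2 change was above 0 after rescaling for SNHG1 (1.08), SNHG6 (0.59), SNHG12 (0.67), SNHG16 (0.23) and GAS5 (0.89), and by edgeR with TMM for SNHG1 (0.93), SNHG6 (0.53), SNHG8 (0.017), SNHG12 (0.63), SNHG16 (0.15) and GAS5 (0.71). In total RNA GAS5 was 0.23 rescaled, edgeR with TMM gave SNHG6 0.24, SNHG12 0.023 and GAS5 0.48, and SNHG1 was -0.28 by edgeR and -0.28 by DESeq2 with ERCC factors. In the cytoplasm SNHG12 was -0.0059 with a pseudocount of 0.1 and -0.11 with the highest interval, SNHG1 was -0.051 with the highest interval, and SNHG6 was -0.62 by edgeR and -0.62 by DESeq2 with ERCC factors. The nuclear minus cytoplasmic effect turned positive after rescaling for SNHG1 (0.17), SNHG5 (0.60), SNHG6 (0.23), SNHG12 (0.61) and GAS5 (0.13), and by edgeR with TMM for SNHG1 (0.026), SNHG5 (0.50), SNHG6 (0.24) and SNHG12 (0.36). SNHG16 between fractions under DMSO was 0.16 with the highest interval.

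With 1 library left out, these changes crossed 0: in the nucleus SNHG5 -0.31 to 1.11, in total RNA SNHG1 -0.29 to 0.98, SNHG5 -0.045 to 1.33, SNHG6 -0.75 to 0.48, SNHG12 -1.23 to 0.29 and GAS5 -0.31 to 0.41, and in the cytoplasm SNHG6 -0.83 to 1.35, SNHG12 -0.69 to 1.05, GAS5 -0.13 to 1.51 and SNHG25 -0.11 to 3.40. So did the nuclear minus cytoplasmic effect of SNHG8 -1.01 to 2.02, the nuclear to cytoplasmic ratio under JQ1-VHL of SNHG6 -0.53 to 1.08 and SNHG8 -1.10 to 1.93, and that under DMSO of SNHG8 -1.23 to 1.12, SNHG16 -1.22 to 0.55 and GAS5 -0.99 to 0.65. The cause of these changes was not tested. Depth limited cytoplasmic values of SNHG11, with 0 to 5 reads in each library, and of SNHG25 and SNHG8, with 0 reads in 2 libraries and 1 library. With 3 libraries a group an exact permutation test could not go below 0.1.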
